A study of Gallus gallus with 12 samples.

Results

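Semaphorins, ephrins and Slits are signals that cells read through plexins and neuropilins, Eph receptors and Robo receptors. The 53 genes of these families among the 21350 rows of the count tables were taken by symbol: SEMA3 to SEMA7, PLXNA to PLXND, NRP1 and NRP2, EPHA and EPHB, EFNA and EFNB, SLIT1 to SLIT3 and ROBO1 to ROBO4. The families were chosen with earlier results of these data known. The 53 genes divide into 18 semaphorins, 7 plexins, 2 neuropilins, 13 Eph receptors, 6 ephrins, 3 SLIT genes and 4 ROBO genes. All 53 passed the low-count filter, although EPHA8, EPHA10 and SEMA6C each had a library with fewer than 10 counts. The cells were limb-bud mesenchymal cells of chick embryos at embryonic day 4.5, from the Lohmann Selected Leghorn strain, grown at high density as droplets for 5 days. They carried the avian retrovirus RCAS-BP(A), which infects dividing chick cells and spreads from cell to cell. Control cells had the virus without an insert (RCAS-BP(A)-empty). The other 5 groups carried RCAS-BP(A)-OSR1-3F, OSR2-3F, EGR1-3F, KLF2-3F or KLF4-3F, which force expression of a zinc-finger transcription factor linked to connective tissue, and they are called by the factor here. There were 2 libraries per group, 12 in all, and 6 cultures were harvested for each RNA extract. Virus drives the factor in whichever cell it infects, so the groups are not models of 1 cell type.

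Guidance signals were first known for steering axons, and in limb mesenchyme they also bear on where vessels and nerves enter, how cells sort and where tissues meet. Class 3 semaphorins are secreted and mostly bind a neuropilin that pairs with a plexin, whereas classes 4 to 7 are mainly membrane-bound and bind plexins directly. Ephrin-A ligands are tethered by a lipid anchor and ephrin-B ligands span the membrane, so Eph receptors are engaged only at cell contact and both cells can signal. Slits are large secreted proteins that bind Robo receptors.

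Totals ran from 51233721 counts in Control replicate 1 to 106079374 in EGR1 replicate 1, so counting error was small for all but the rarest of these genes. Each forced gene was highest in its own group, with a mean of 3200 CPM (counts scaled to a common library size, corrected for library composition) for OSR1, 2100 for OSR2, 8390 for EGR1, 1700 for KLF2 and 1230 for KLF4, and at most 139 CPM elsewhere. The first principal component of all features tested held 41.8% of the variance and placed the Control libraries at -96.04 and -75.29, while the factor libraries lay between -7.471 and 38.85. Every comparison with Control therefore rests on a pair of libraries that stand apart. The comparisons between factors set no group against Control, but the fit of all 12 libraries still used Control for the filter, the scaling and the spread. In bulk RNA, fewer cells of a type and less RNA per cell cannot be told apart.

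The question for each factor was which guidance genes differed from the empty virus. Most of those called were higher, and ligands and receptors both contributed (calls at an adjusted p under 0.05 in edgeR's quasi-likelihood test, adjusted over all features). In OSR1, 31 of the 53 rose and 6 fell, so that 69.8% were called where 51.0% of all features were (28.4% higher and 22.7% lower), and the median log2 fold change was 0.55 beside 0.05 over all features. In OSR2, 32 of the 53 rose and 6 fell, so that 71.7% were called where 51.9% of all features were (28.9% higher and 23.0% lower), and the median log2 fold change was 0.55 beside 0.04 over all features. In KLF2, 31 of the 53 rose and 9 fell, so that 75.5% were called where 51.6% of all features were (28.1% higher and 23.5% lower), and the median log2 fold change was 0.48 beside 0.02 over all features. In KLF4, 32 of the 53 rose and 8 fell, so that 75.5% were called where 54.2% of all features were (28.7% higher and 25.5% lower), and the median log2 fold change was 0.60 beside -0.01 over all features. In EGR1, 28 of the 53 rose and 4 fell, so that 60.4% were called where 45.1% of all features were (24.6% higher and 20.5% lower), and the median log2 fold change was 0.42 beside 0.01 over all features. Each share called lay above that of all features, but the sets were not matched for abundance. The listed effector genes of these receptors, described below, also lay above all features, with 50% to 68.5% called. In what follows, values in CPM are levels in single libraries or group means, and values with a standard error (SE) are log2 fold changes, over Control unless another group is named. For the 27 ligands the median log2 fold change ran from 0.61 to 0.75 over the 5 factors, and for the 26 receptors from 0.38 to 0.57. The 5 comparisons share the same Control libraries, so they do not repeat each other independently. Without Control replicate 1 the count called fell to 22 in EGR1, 31 in KLF2, 33 in KLF4, 27 in OSR1 and 30 in OSR2. The count was equally low without EGR1 replicate 1 in EGR1 and without KLF2 replicate 1 in KLF2. In each of these fits the share of all features called for those comparisons fell as well.

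**Figure D1:**
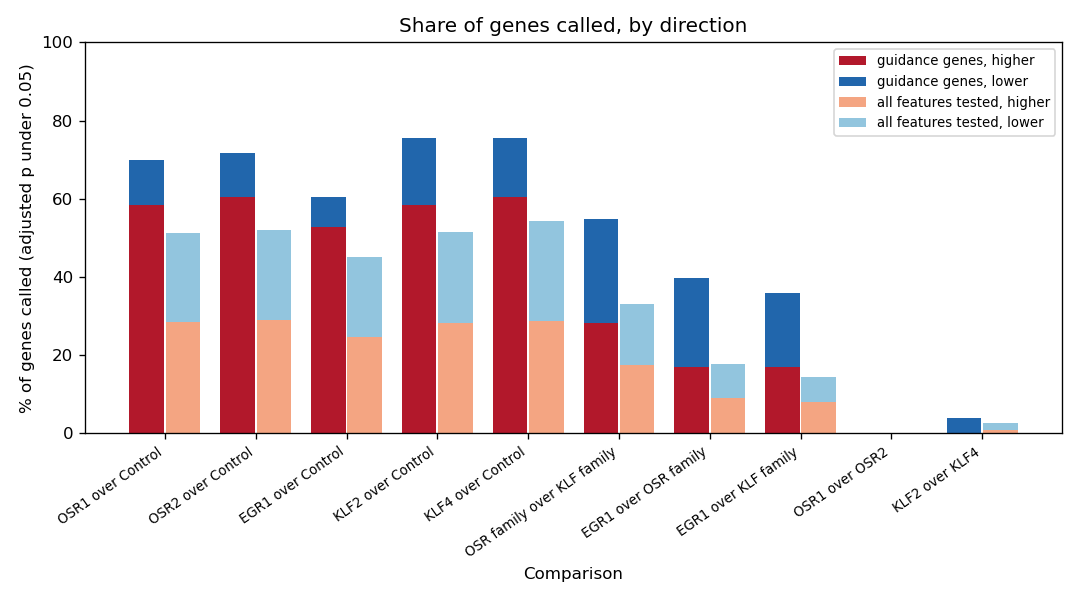
Stacked bars give the percentage called in each of the 10 comparisons (horizontal axis), dark for the 53 guidance genes and pale for all features tested, with higher calls below and lower calls on top. In OSR1 over Control 69.8% of the guidance genes and 51.0% of all features were called, and for OSR1 over OSR2 no bar rises visibly above 0.

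Within groups, the levels of some guidance genes followed the axis on which Control stood apart. Taking in each group the library with the higher first-component score, 10 of the 53 genes were higher in that library in all 6 groups (18.9%, beside 7.5% of all features), among them EFNB1, EPHB1, EPHB3 and SEMA3F. In at least 5 groups this held for 22 genes, or 41.5% beside 20.4% of all features, while EPHA7, NRP1 and SEMA4D were lower in that library in 5 of the 6 groups. The part of this axis in the rises over Control was not tested. Markers of neurons and glia, cell types known for these genes, summed to 29.1 to 31.2 CPM in Control, 50.3 to 80.5 in OSR1 and OSR2, 25 to 25.1 in EGR1, 29.6 to 30.3 in KLF2 and 66.3 to 75.1 in KLF4, over 12 listed genes. At least 5 of those 12 averaged under 1 CPM in each group, and SOX10, the glial factor, averaged 0.16 CPM in Control and at most 1.31, in KLF4. FOXD3 was at 0 in OSR2 and KLF2. Among neuronal markers, NEFM averaged 6.22 CPM in Control and 30.8 in OSR2, and STMN2 2.56 in Control and 25.1 in KLF4. SNAP25 averaged 2.04 CPM in Control and at most 0.692 in the factor groups, in EGR1. Of the 11 tested, 3 rose and 2 fell in OSR1, and 4 rose and 2 fell in OSR2. In KLF2 2 rose and 3 fell, in KLF4 5 rose and 2 fell, and in EGR1 4 rose and 3 fell. The part of these cells in the results was not tested. Markers of limb mesenchyme and fibroblasts, the labelled cell type, were abundant and summed to 9880 to 10800 CPM in Control and 14100 to 19400 in the factor groups. COL1A1 and COL1A2 made up most of that sum. COL1A1 averaged 936 CPM in Control and 2620 to 3980 elsewhere, and COL1A2 6340 and 8760 to 11300. DCN averaged 1170 CPM in Control and 763 to 1160 elsewhere. Of these 14 markers, none of which was at 0, between 7 and 10 rose and 1 to 3 fell, and their part in the results was not tested. Cartilage markers, 12 listed, summed to 16500 to 17800 CPM in Control and 3450 to 5620 in OSR1 and OSR2. Their sums were 11900 to 14100 CPM in KLF2 and KLF4 and 16300 to 19700 in EGR1. All 12 fell in OSR1 and in OSR2. In KLF2 0 rose and 8 fell, in KLF4 1 rose and 7 fell, and in EGR1 1 rose and 2 fell. The part of cartilage in the differences from Control was not tested. Over Control, 24.6% to 28.9% of all features were called higher and 20.5% to 25.5% lower, depending on the factor.

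**Figure D2:**
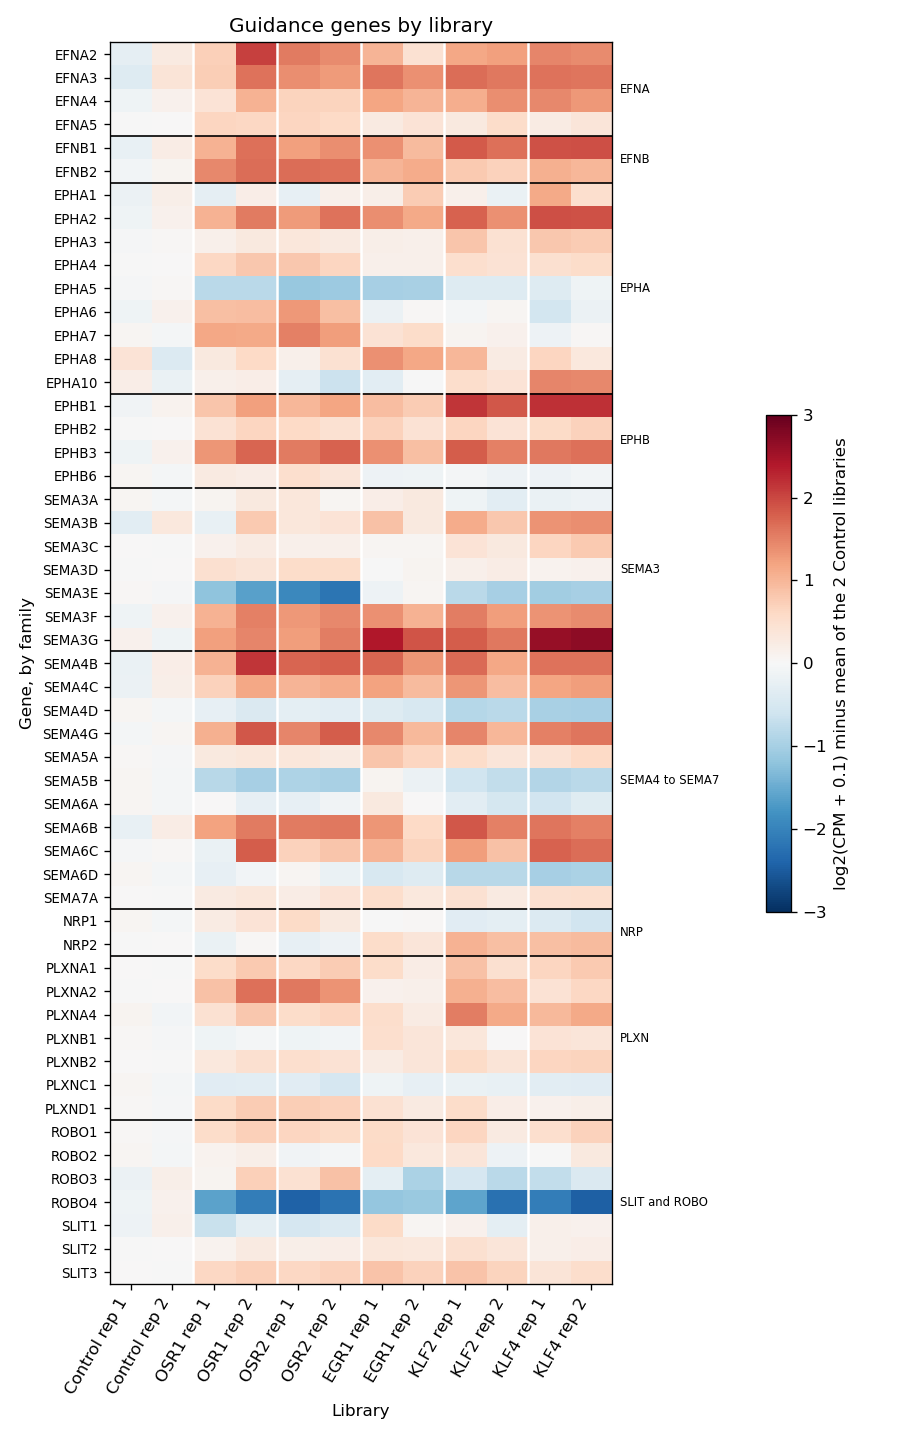
Heatmap of the 53 guidance genes (rows, by family) in the 12 libraries (columns). Colour gives log2(CPM + 0.1) minus the mean of the Control libraries, on a scale limited to 3 in either direction, and the values run from -2.45 to 2.68; the ephrin rows are positive in nearly every factor library.

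Ephrins rose in nearly every comparison with Control. All 6 were called higher in OSR1, OSR2, KLF2 and KLF4, and 5 of 6 in EGR1, with none lower. Of all features, 28.4% were called higher in OSR1, 28.9% in OSR2, 28.1% in KLF2, 28.7% in KLF4 and 24.6% in EGR1. The median log2 fold change of the ephrins was 1.33 in OSR1, 1.35 in OSR2, 1.23 in KLF2, 1.42 in KLF4 and 1.10 in EGR1. Fewer ephrins were called higher under some alternatives, down to 3 in OSR1 in a fit of the compared groups alone. The number was as low for OSR1 and OSR2 without Control replicate 1. In these settings the share of all features called was also lower. EFNB1, a transmembrane ligand that marks tissue boundaries, measured 71.4 and 95.8 CPM in Control, 169.5 and 259 in OSR1, 195 and 218 in OSR2, 297 and 259.7 in KLF2, 312 and 315 in KLF4 and 215 and 159.6 in EGR1. All 10 factor libraries exceeded both Control libraries, and the KLF libraries were the highest. EFNB1 rose by a log2 fold change of 1.36 in OSR1, 1.30 in OSR2, 1.74 in KLF2, 1.91 in KLF4 and 1.16 in EGR1 (adjusted p from 0.00027 to 0.0042, SE 0.23). EFNB2, the ephrin-B known from arteries in the mouse, measured 23.2 and 26.4 CPM in Control, 67.9 and 78.7 in OSR1, 79.3 and 77.6 in OSR2, 42.9 and 40.0 in KLF2, 51.9 and 49.6 in KLF4 and 50.0 and 54.0 in EGR1. The groups separated into 3 levels without overlap, Control lowest, EGR1 and KLF in the middle and OSR highest. Its log2 fold changes were 1.56 in OSR1, 1.66 in OSR2, 0.74 in KLF2, 1.03 in KLF4 and 1.07 in EGR1 (adjusted p from 8.3e-07 to 0.00019, SE 0.10), with the larger rises in OSR1 and OSR2, and every call held under each alternative. Among lipid-anchored ephrins, EFNA5, a repellent in the chick tectum, measured 33.5 and 34.3 CPM in Control, 52.8 and 52.5 in OSR1, 52.7 and 50.9 in OSR2, 41.9 and 49.8 in KLF2, 40.0 and 43.8 in KLF4 and 41.0 and 44.8 in EGR1. Every factor library lay above Control, and the OSR libraries lay above all others. Its log2 fold changes were 0.64 in OSR1, 0.61 in OSR2, 0.44 in KLF2, 0.31 in KLF4 and 0.34 in EGR1 (adjusted p from 0.00041 to 0.018, SE 0.09). For EFNA5, the call in KLF4 was lost without either Control replicate or KLF4 replicate 2 and with library totals alone (0.24 to 0.33, adjusted p from 0.059 to 0.13). EFNA5's call in EGR1 was lost without Control replicate 1 or EGR1 replicate 2 and with library totals alone (0.26 to 0.32, adjusted p from 0.065 to 0.083). EFNA2, a related repellent of the tectum, measured 4.86 and 7.08 CPM in Control, 9.73 and 24.8 in OSR1, 17.4 and 15.7 in OSR2, 13.3 and 13.9 in KLF2, 16.3 and 15.8 in KLF4 and 12.1 and 8.06 in EGR1. Replicates in OSR1 were far apart, and the single Control libraries were also unequal. EFNA2 rose by 1.53 in OSR1, 1.47 in OSR2, 1.19 in KLF2 and 1.42 in KLF4 (adjusted p from 0.014 to 0.038, SE 0.40 to 0.41) and had 0.75 (SE 0.40, adjusted p = 0.16) in EGR1. For EFNA2, the call in OSR1 was lost without Control replicate 1 and in a fit of the compared groups alone (1.29 to 1.51, adjusted p from 0.095 to 0.1). EFNA2's call in OSR2 was lost without Control replicate 1 or OSR2 replicate 1 (1.23 to 1.40, adjusted p from 0.055 to 0.11). EFNA2's call in KLF2 was lost without either Control replicate, either KLF2 replicate, either KLF4 replicate or either OSR2 replicate (0.94 to 1.49, adjusted p from 0.052 to 0.19). EFNA2's call in KLF4 was lost without Control replicate 1 or either KLF4 replicate (1.18 to 1.45, adjusted p from 0.057 to 0.11). Without OSR1 replicate 2 the estimate for EFNA2 in OSR1 was 0.71. EFNA3 averaged 0.715 CPM in Control, 1.78 in OSR1, 1.89 in OSR2, 2.34 in KLF2, 2.31 in KLF4 and 2.13 in EGR1, and its log2 fold changes were 1.31 in OSR1, 1.39 in OSR2, 1.69 in KLF2, 1.68 in KLF4 and 1.56 in EGR1 (adjusted p from 0.0017 to 0.0079, SE 0.33). For EFNA3, the call in OSR1 was lost without Control replicate 1 or OSR1 replicate 2 and in a fit of the compared groups alone (0.75 to 1.29, adjusted p from 0.065 to 0.085). EFNA3's call in OSR2 was lost without Control replicate 1 (1.03, adjusted p = 0.052). EFNA4 averaged 2.26 CPM in Control, 3.89 in OSR1, 3.63 in OSR2, 5.48 in KLF2, 6.03 in KLF4 and 4.93 in EGR1, and it rose by 0.78 in OSR1, 0.68 in OSR2, 1.27 in KLF2, 1.41 in KLF4 and 1.12 in EGR1 (adjusted p from 0.00039 to 0.021, SE 0.21). For EFNA4, the call in OSR1 was lost without Control replicate 1 or OSR1 replicate 2 and in a fit of the compared groups alone (0.43 to 0.76, adjusted p from 0.074 to 0.11). EFNA4's call in OSR2 was lost without Control replicate 1 or either OSR2 replicate (0.55 to 0.69, adjusted p from 0.065 to 0.14). EFNA2 was additionally called in EGR1 without either OSR1 replicate and in a fit of the compared groups alone.

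EphA receptors, the main partners of the ephrin-A ligands, split among themselves. Of 9, 4 rose and 1 fell in OSR1, 5 rose and 1 fell in OSR2, 3 rose and 1 fell in KLF2, 5 rose and 0 fell in KLF4 and 3 rose and 1 fell in EGR1. EPHA2, EPHA3, EPHA4 and EPHA7 supplied most of the rises and EPHA5 every fall. The share called among EphA receptors was 55.6% in OSR1, 66.7% in OSR2, 44.4% in KLF2, 55.6% in KLF4 and 44.4% in EGR1, beside 51.0%, 51.9%, 51.6%, 54.2% and 45.1% of all features in that order. It was near the background apart from OSR2, where the call of EPHA3 was lost under many alternatives. EPHA4, which binds ephrins of both classes and steers limb motor axons, measured 56.0 and 56.5 CPM in Control, 86.4 and 99.2 in OSR1, 98.6 and 88.1 in OSR2, 80.3 and 76.1 in KLF2, 79.1 and 82.4 in KLF4 and 62.5 and 62.8 in EGR1. Each factor library exceeded both Control libraries, by least in EGR1. It rose by 0.72 in OSR1, 0.73 in OSR2, 0.48 in KLF2 and 0.52 in KLF4 (adjusted p from 6.8e-05 to 0.001, SE 0.08), and had 0.15 (SE 0.08, adjusted p = 0.16) in EGR1. EPHA2, a receptor common in epithelia and mesenchyme, measured 20.3 and 24.5 CPM in Control, 46.0 and 66.1 in OSR1, 54.4 and 68.9 in OSR2, 76.2 and 57.9 in KLF2, 85.6 and 83.6 in KLF4 and 58.6 and 49.5 in EGR1. All factor libraries lay clear of Control, with KLF4 the highest. The log2 rises were 1.32 in OSR1, 1.46 in OSR2, 1.58 in KLF2, 1.92 in KLF4 and 1.27 in EGR1 (adjusted p from 0.00014 to 0.0019, SE 0.21), each called under every alternative. EPHA7 was highest in the OSR groups, with 15 and 13.9 CPM in Control, 32.5 and 31.7 in OSR1, 41.3 and 34.3 in OSR2, 15.3 and 15.7 in KLF2, 13.1 and 14.7 in KLF4 and 19.5 and 21.1 in EGR1. OSR libraries did not overlap any other group, EGR1 lay between, and KLF libraries straddled Control. Its log2 fold changes were 1.15 in OSR1, 1.39 in OSR2 and 0.49 in EGR1 (adjusted p from 5.9e-06 to 0.0052, SE 0.11), and it was not called in KLF2 (0.10, SE 0.11, adjusted p = 0.46) or KLF4 (-0.06, SE 0.11, adjusted p = 0.69). EPHA5, a receptor of retinal axons, went the other way at a low level, with 8.35 and 8.72 CPM in Control, 4.87 and 4.86 in OSR1, 3.84 and 3.93 in OSR2, 6.50 and 6.55 in KLF2, 6.55 and 7.84 in KLF4 and 4.20 and 4.29 in EGR1. The Control libraries were the highest and the OSR and EGR1 libraries the lowest. It fell, with -0.81 in OSR1, -1.13 in OSR2, -1.01 in EGR1 and -0.39 in KLF2 (adjusted p from 4.8e-05 to 0.021, SE 0.12), with -0.25 (SE 0.12, adjusted p = 0.11) in KLF4. For EPHA5, the call in KLF2 was lost without either Control replicate or either KLF2 replicate and in a fit of the compared groups alone (-0.35 to -0.41, adjusted p from 0.055 to 0.1).

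Of the other EphA receptors, EPHA3, a receptor of ephrin-A ligands on motor axons, averaged 49.8 CPM in Control, 58.6 in OSR1, 61.5 in OSR2, 78.2 in KLF2, 86.2 in KLF4 and 55.8 in EGR1. EPHA3 rose in OSR2, KLF2 and KLF4, with log2 fold changes over Control of 0.23 in OSR1, 0.30 in OSR2, 0.65 in KLF2, 0.79 in KLF4 and 0.16 in EGR1 (adjusted p from 0.00022 to 0.24, SE 0.11). For EPHA3, the call in OSR2 was lost without either Control replicate, either KLF4 replicate or either OSR2 replicate, with thinned counts, in DESeq2, with library totals alone and with median-of-ratios size factors (0.27 to 0.35, adjusted p from 0.052 to 0.16). In KLF2 the EPHA3 rise was 0.42 without KLF2 replicate 1. EPHA6 averaged 0.445 CPM in Control, 0.923 in OSR1, 1.07 in OSR2, 0.439 in KLF2, 0.326 in KLF4 and 0.417 in EGR1 and rose in the OSR groups, at 1.05 in OSR1 and 1.27 in OSR2 (adjusted p from 0.0019 to 0.0061, SE 0.25). For EPHA6, the call in OSR1 was lost without Control replicate 1 (0.90, adjusted p = 0.058). EPHA10, a receptor that lacks kinase activity, held only 5 to 54 counts per library. It averaged 0.152 CPM in Control, 0.181 in OSR1, 0.0824 in OSR2, 0.245 in KLF2, 0.578 in KLF4 and 0.122 in EGR1, and rose in KLF4 (1.94, SE 0.35, adjusted p = 0.001). EPHA1 averaged 0.461 CPM in Control, 0.451 in OSR1, 0.445 in OSR2, 0.452 in KLF2, 0.907 in KLF4 and 0.682 in EGR1 and was called only in KLF4 (0.96, SE 0.36, adjusted p = 0.045). For EPHA1, the call in KLF4 was lost without either Control replicate, KLF4 replicate 1 or either OSR2 replicate, in DESeq2, with library totals alone and with replicate number blocked (0.58 to 1.19, adjusted p from 0.051 to 0.28). EPHA1 is an epithelial receptor, and 10 listed epidermal markers summed to 181 to 222 CPM in KLF4 and 62.8 to 121 in the other groups, none of them at 0. KRT14, KRT15 and KRT19 averaged 7.35, 4.16 and 15.1 CPM in Control and 38.5, 21.2 and 78 in KLF4. GRHL3 averaged 15.1 CPM in Control and 12.8 in KLF4, and KRT5 1.38 and 1.29. Of the 10 markers, 5 rose and 1 fell in KLF4, where 28.7% of all features were called higher and 25.5% lower. The part of epidermal cells in the EPHA1 call was not tested. EPHA8 had 7 and 2 counts in the Control libraries and 36 and 26 in EGR1, where it was called (2.01, SE 0.58, adjusted p = 0.018), and a fitted fold change from so few counts depends on the prior count. For EPHA8, the call in EGR1 was lost without Control replicate 2 or EGR1 replicate 1 and in DESeq2 (1.30 to 1.99, adjusted p from 0.051 to 0.14). Without Control replicate 1 the EPHA8 estimate was 3.25. EPHA3 was additionally called in OSR1 without either KLF2 replicate.

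EphB receptors, which bind ephrin-B ligands, rose in most groups. Of 4, 4 rose and 0 fell in OSR1, 4 rose and 0 fell in OSR2, 3 rose and 0 fell in KLF2, 3 rose and 0 fell in KLF4 and 3 rose and 0 fell in EGR1, and the median log2 fold change was 0.80 in OSR1, 0.81 in OSR2, 1.09 in KLF2, 1.13 in KLF4 and 0.70 in EGR1. The share called among EphB receptors was 100% in OSR1, 100% in OSR2, 75% in KLF2, 75% in KLF4 and 75% in EGR1, beside 51.0%, 51.9%, 51.6%, 54.2% and 45.1% of all features in that order. EPHB1, a receptor of motor axons that enter the ventral limb, measured 64.7 and 74.0 CPM in Control, 123 and 163 in OSR1, 139 and 156 in OSR2, 306 and 254 in KLF2, 314 and 318 in KLF4 and 131 and 118 in EGR1. Control was lowest, OSR and EGR1 libraries overlapped at an intermediate level, and the KLF libraries were the highest without overlap. The rises were 1.04 in OSR1, 1.09 in OSR2, 2.01 in KLF2, 2.19 in KLF4 and 0.85 in EGR1 (adjusted p from 3.7e-06 to 0.0014, SE 0.14 to 0.15) on the log2 scale. EPHB3, expressed in many mesenchymal and epithelial tissues, measured 68.0 and 80.1 CPM in Control, 186 and 248 in OSR1, 217 and 254 in OSR2, 259 and 209.6 in KLF2, 219.6 and 234 in KLF4 and 190.2 and 139 in EGR1. All factor libraries exceeded Control, while the factor groups overlapped one another. It rose by 1.55 in OSR1, 1.67 in OSR2, 1.66 in KLF2, 1.61 in KLF4 and 1.15 in EGR1 (adjusted p from 0.00017 to 0.0019, SE 0.19). EPHB2, which acts with EPHB3 in sorting cells, measured 88.2 and 89.5 CPM in Control, 121 and 139.5 in OSR1, 134 and 123 in OSR2, 139 and 117 in KLF2, 132 and 144 in KLF4 and 143 and 119 in EGR1. Again no factor library overlapped Control. Log2 rises of 0.55 in OSR1, 0.53 in OSR2, 0.53 in KLF2, 0.64 in KLF4 and 0.56 in EGR1 (adjusted p from 0.001 to 0.0032, SE 0.11) were called, and the calls of EPHB1, EPHB2 and EPHB3 over Control held under every alternative. EPHB6, whose kinase domain is inactive, averaged 21.8 CPM in Control, 25.9 in OSR1, 29.5 in OSR2, 20.3 in KLF2, 20.03 in KLF4 and 19.7 in EGR1 and rose in OSR1 and OSR2, at 0.25 in OSR1 and 0.43 in OSR2 (adjusted p from 0.0025 to 0.04, SE 0.09). For EPHB6, the call in OSR1 was lost without either Control replicate, either KLF4 replicate or either OSR1 replicate, with thinned counts, in DESeq2, in a fit of the compared groups alone, with library totals alone, with median-of-ratios size factors and with replicate number blocked (0.19 to 0.31, adjusted p from 0.053 to 0.21).

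Secreted class 3 semaphorins did not move as a block. Of 7, 3 rose and 1 fell in OSR1, 3 rose and 1 fell in OSR2, 4 rose and 1 fell in KLF2, 4 rose and 1 fell in KLF4 and 2 rose and 0 fell in EGR1. SEMA3F and SEMA3G rose, and SEMA3E fell in every group but EGR1. Among class 3 semaphorins the share called was 57.1% in OSR1, 57.1% in OSR2, 71.4% in KLF2, 71.4% in KLF4 and 28.6% in EGR1, beside 51.0%, 51.9%, 51.6%, 54.2% and 45.1% of all features in that order, lying below it in EGR1. SEMA3F, which repels axons that carry NRP2 and is known from the mouse limb, measured 84.9 and 103 CPM in Control, 192 and 266 in OSR1, 229 and 255 in OSR2, 270.0 and 224 in KLF2, 238 and 251 in KLF4 and 242 and 194 in EGR1. Both Control libraries were well below all 10 factor libraries, among which the groups overlapped. SEMA3F rose by 1.28 in OSR1, 1.36 in OSR2, 1.39 in KLF2, 1.38 in KLF4 and 1.21 in EGR1 (adjusted p from 0.00026 to 0.00098, SE 0.18) on the log2 scale, and each call held under every alternative. SEMA3E, which binds PLXND1 without a neuropilin, measured 19.1 and 18.4 CPM in Control, 8.09 and 6.00 in OSR1, 4.82 and 4.02 in OSR2, 10.6 and 9.32 in KLF2, 9.01 and 9.37 in KLF4 and 17.0 and 19.3 in EGR1. EGR1 libraries overlapped Control, KLF libraries had a lower level and the OSR libraries were the lowest. It fell, with -1.41 in OSR1, -2.08 in OSR2, -0.91 in KLF2 and -1.03 in KLF4 (adjusted p from 4.5e-06 to 0.00082, SE 0.15 to 0.16) and had -0.04 (SE 0.15, adjusted p = 0.83) in EGR1. SEMA3B, which can use either neuropilin, measured 12.6 and 19.6 CPM in Control, 13.5 and 27.3 in OSR1, 19.8 and 20.9 in OSR2, 33.9 and 27.4 in KLF2, 40.1 and 41.3 in KLF4 and 29.0 and 19.3 in EGR1. Replicates were unequal in Control, OSR1 and EGR1, and OSR1 and EGR1 overlapped Control, while the KLF4 libraries were the highest. It was called only in KLF4 (1.34, SE 0.35, adjusted p = 0.012), while in KLF2 it missed the threshold (0.93, SE 0.35, adjusted p = 0.054). For SEMA3B, the call in KLF4 was lost without Control replicate 1 (1.06, adjusted p = 0.085). SEMA3B was additionally called in OSR1 without OSR1 replicate 1, and in KLF2 without Control replicate 2 or either OSR1 replicate, in DESeq2 and in a fit of the compared groups alone.

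SEMA3G, another NRP2 ligand, was counted at low CPM, with means of 0.266 CPM in Control, 0.830 in OSR1, 0.864 in OSR2, 1.09 in KLF2, 2.18 in KLF4 and 1.54 in EGR1. It showed the largest log2 rises of the class, 1.65 in OSR1, 1.70 in OSR2, 2.04 in KLF2, 3.04 in KLF4 and 2.54 in EGR1 (adjusted p from 1.4e-05 to 0.00088, SE 0.27 to 0.28), and was called in each comparison with Control under every alternative. SEMA3C, known from outflow-tract and vessel patterning, averaged 84.6 CPM in Control, 96.1 in OSR1, 93.8 in OSR2, 108 in KLF2, 140.0 in KLF4 and 88.6 in EGR1 and rose in KLF2 and KLF4, at 0.35 in KLF2 and 0.73 in KLF4 (adjusted p from 3.9e-05 to 0.003, SE 0.08). SEMA3D averaged 147 CPM in Control, 198 in OSR1, 215 in OSR2, 168 in KLF2, 160.2 in KLF4 and 150.1 in EGR1 and rose in OSR1 and OSR2, at 0.43 in OSR1 and 0.55 in OSR2 (adjusted p from 8.7e-05 to 0.0005, SE 0.07) and, by less, in KLF2 (0.19, SE 0.07, adjusted p = 0.031). For SEMA3D, the call in KLF2 was lost without either Control replicate or either KLF2 replicate, in DESeq2, in a fit of the compared groups alone, with library totals alone and with median-of-ratios size factors (0.13 to 0.21, adjusted p from 0.051 to 0.16). SEMA3A, the classical repellent that binds NRP1, averaged 113 CPM in Control, 128 in OSR1, 129.7 in OSR2, 97.3 in KLF2, 99.3 in KLF4 and 133 in EGR1 and was called in no comparison with Control, its log2 fold changes being 0.19 in OSR1, 0.20 in OSR2, -0.21 in KLF2, -0.18 in KLF4 and 0.24 in EGR1 (adjusted p from 0.088 to 0.17, SE 0.11). SEMA3C was additionally called in OSR1 without OSR1 replicate 1 or KLF2 replicate 2. SEMA3A was additionally called in OSR2 without OSR2 replicate 2, and in KLF4 in a fit of the compared groups alone.

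Membrane-bound semaphorins held both rises and falls. Of the 11 in classes 4 to 7, 6 rose and 2 fell in OSR1, 6 rose and 2 fell in OSR2, 6 rose and 4 fell in KLF2, 7 rose and 4 fell in KLF4 and 6 rose and 2 fell in EGR1. SEMA4B, SEMA4C, SEMA4G, SEMA5A, SEMA6B and SEMA7A rose, and SEMA4D, SEMA5B, SEMA6A and SEMA6D gave the falls. Among these 11 the share called was 72.7% in OSR1, 72.7% in OSR2, 90.9% in KLF2, 100% in KLF4 and 72.7% in EGR1, beside 51.0%, 51.9%, 51.6%, 54.2% and 45.1% of all features in that order. SEMA5A, a semaphorin with thrombospondin repeats, measured 491 and 463 CPM in Control, 583 and 602 in OSR1, 602 and 571 in OSR2, 704 and 612 in KLF2, 644 and 723 in KLF4 and 856 and 752 in EGR1. Every factor library lay above Control, and the EGR1 libraries were highest. SEMA5A rose by 0.31 in OSR1, 0.30 in OSR2, 0.46 in KLF2, 0.52 in KLF4 and 0.75 in EGR1 (adjusted p from 0.0004 to 0.026, SE 0.10). For SEMA5A, the call in OSR1 was lost without either Control replicate or OSR1 replicate 2 (0.27 to 0.36, adjusted p from 0.061 to 0.11). SEMA5A's call in OSR2 was lost without either Control replicate or either OSR2 replicate and with median-of-ratios size factors (0.26 to 0.34, adjusted p from 0.05 to 0.13). SEMA4D, a plexin-B ligand that in the mouse restrains bone formation, measured 28.4 and 25.9 CPM in Control, 22.9 and 20.2 in OSR1, 22.1 and 21.7 in OSR2, 15 and 15.4 in KLF2, 13.7 and 13.5 in KLF4 and 20.7 and 19.4 in EGR1. No factor library reached Control, and the KLF libraries were the lowest without overlap. SEMA4D fell, with -0.33 in OSR1, -0.31 in OSR2, -0.84 in KLF2, -1.0 in KLF4 and -0.44 in EGR1 (adjusted p from 2.4e-05 to 0.02, SE 0.09 to 0.10) on the log2 scale. For SEMA4D, the call in OSR1 was lost without Control replicate 1 or OSR1 replicate 2 (-0.24 to -0.26, adjusted p from 0.11 to 0.12). SEMA4D's call in OSR2 was lost without Control replicate 1 or either OSR2 replicate (-0.24 to -0.32, adjusted p from 0.062 to 0.15). SEMA4D's call in EGR1 was lost without Control replicate 1 (-0.37, adjusted p = 0.051). SEMA4C, a ligand of PLXNB2, measured 8.98 and 11.5 CPM in Control, 16.5 and 23.0 in OSR1, 20.7 and 22.2 in OSR2, 25.6 and 19.3 in KLF2, 23.3 and 24.4 in KLF4 and 23.8 and 19.8 in EGR1. Factor libraries were all above Control and overlapped between groups. It rose by 0.95 in OSR1, 1.06 in OSR2, 1.13 in KLF2, 1.22 in KLF4 and 1.09 in EGR1 (adjusted p from 0.00055 to 0.0026, SE 0.19), in every alternative. SEMA4B measured 5.61 and 7.53 CPM in Control, 13.4 and 29.0 in OSR1, 22.1 and 22.8 in OSR2, 21.4 and 14.5 in KLF2, 20.4 and 20.2 in KLF4 and 22.1 and 16.3 in EGR1. OSR1 replicates were far apart, although each factor library exceeded both Control libraries. Rises were 1.69 in OSR1, 1.77 in OSR2, 1.45 in KLF2, 1.63 in KLF4 and 1.55 in EGR1 (adjusted p from 0.0042 to 0.01, SE 0.36). For SEMA4B, the call in OSR1 was lost without Control replicate 1 and in a fit of the compared groups alone (1.49 to 1.67, adjusted p from 0.05 to 0.052). SEMA4B's call in KLF2 was lost without Control replicate 1 or KLF2 replicate 1 (1.11 to 1.26, adjusted p from 0.077 to 0.078). SEMA4B's call in EGR1 was lost without Control replicate 1 or EGR1 replicate 1 (1.32 to 1.36, adjusted p from 0.064 to 0.074). The OSR1 estimate of SEMA4B was 1.03 without OSR1 replicate 2.

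SEMA5B, the relative of SEMA5A, averaged 102 CPM in Control, 54.2 in OSR1, 52.6 in OSR2, 64.0 in KLF2, 56.9 in KLF4 and 99.5 in EGR1. Like SEMA3E it fell in OSR1, OSR2, KLF2 and KLF4, at -0.92 in OSR1, -0.96 in OSR2, -0.68 in KLF2 and -0.85 in KLF4 (adjusted p from 3.8e-05 to 0.00041, SE 0.10) and not in EGR1 (-0.04, SE 0.10, adjusted p = 0.76). SEMA6D, a ligand of PLXNA1 in the chick heart, averaged 150.5 CPM in Control, 134 in OSR1, 144 in OSR2, 84.0 in KLF2, 76.2 in KLF4 and 112 in EGR1 and fell in EGR1, KLF2 and KLF4, at -0.43 in EGR1, -0.84 in KLF2 and -0.98 in KLF4 (adjusted p from 2.4e-05 to 0.0046, SE 0.09). SEMA6A, which binds PLXNA2 and PLXNA4, averaged 93.6 CPM in Control, 86.6 in OSR1, 82.8 in OSR2, 70.2 in KLF2, 68.0 in KLF4 and 104 in EGR1 and fell in KLF2 and KLF4, at -0.42 in KLF2 and -0.46 in KLF4 (adjusted p from 0.0099 to 0.017, SE 0.12 to 0.13). For SEMA6A, the call in KLF2 was lost without Control replicate 1 or KLF2 replicate 2 (-0.30 to -0.36, adjusted p from 0.1 to 0.12). SEMA6A's call in KLF4 was lost without Control replicate 1 or KLF4 replicate 1 (-0.36 to -0.41, adjusted p from 0.066 to 0.089). SEMA6B and SEMA4G were counted at low CPM and rose in every group, SEMA6B by 1.42 in OSR1, 1.61 in OSR2, 1.73 in KLF2, 1.59 in KLF4 and 1.04 in EGR1 (adjusted p from 0.00044 to 0.0086, SE 0.26) and SEMA4G by 1.57 in OSR1, 1.70 in OSR2, 1.30 in KLF2, 1.61 in KLF4 and 1.27 in EGR1 (adjusted p from 0.001 to 0.0063, SE 0.29). For SEMA6B, the call in EGR1 was lost without Control replicate 1 or EGR1 replicate 1 (0.62 to 0.83, adjusted p from 0.08 to 0.093). For SEMA4G, the call in EGR1 was lost without Control replicate 1 or EGR1 replicate 1 (1.01 to 1.22, adjusted p from 0.051 to 0.053). SEMA6B averaged 1.67 CPM in Control, 4.50 in OSR1, 5.11 in OSR2, 5.54 in KLF2, 5.04 in KLF4 and 3.43 in EGR1, and SEMA4G 1.93 CPM in Control, 5.73 in OSR1, 6.26 in OSR2, 4.74 in KLF2, 5.88 in KLF4 and 4.63 in EGR1. SEMA7A, a lipid-anchored ligand of PLXNC1 and integrins, averaged 16.6 CPM in Control, 20.5 in OSR1, 20.6 in OSR2, 21.4 in KLF2, 23.5 in KLF4 and 22.3 in EGR1 and rose by 0.30 in OSR1, 0.31 in OSR2, 0.37 in KLF2, 0.50 in KLF4 and 0.42 in EGR1 (adjusted p from 0.0027 to 0.034, SE 0.11). For SEMA7A, the call in OSR1 was lost without either Control replicate, either KLF4 replicate or either OSR1 replicate and in a fit of the compared groups alone (0.28 to 0.33, adjusted p from 0.052 to 0.12). SEMA7A's call in OSR2 was lost without either Control replicate or OSR2 replicate 2, in DESeq2, in a fit of the compared groups alone and with median-of-ratios size factors (0.22 to 0.32, adjusted p from 0.051 to 0.2). SEMA7A's call in KLF2 was lost without either Control replicate or KLF2 replicate 1 and in a fit of the compared groups alone (0.24 to 0.38, adjusted p from 0.052 to 0.14). SEMA7A's call in EGR1 was lost without EGR1 replicate 1 (0.33, adjusted p = 0.079). SEMA6C had 3 to 45 counts per library and was called only in KLF4 (2.78, SE 0.93, adjusted p = 0.03). For SEMA6C, the call in KLF4 was lost without either Control replicate or either KLF4 replicate (2.68 to 2.90, adjusted p from 0.077 to 0.13). SEMA6A was additionally called in OSR2 in a fit of the compared groups alone. SEMA6C was additionally called in OSR1 without OSR1 replicate 1, and in OSR2 without either OSR1 replicate and in a fit of the compared groups alone, and in KLF2 without either OSR1 replicate and in a fit of the compared groups alone, and in EGR1 without either OSR1 replicate and in a fit of the compared groups alone.

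The neuropilins, co-receptors of class 3 semaphorins and of vascular endothelial growth factors, moved in different directions. NRP2, the main receptor of SEMA3F, measured 305 and 315 CPM in Control, 271 and 315 in OSR1, 260.3 and 278 in OSR2, 639 and 579 in KLF2, 577 and 603 in KLF4 and 457 and 401 in EGR1. OSR1 libraries overlapped Control, OSR2 libraries lay below it, EGR1 libraries lay above it, and KLF libraries were the highest with no overlap. NRP2 rose by 0.47 in EGR1, 0.97 in KLF2 and 0.93 in KLF4 (adjusted p from 4e-05 to 0.0033, SE 0.10), each under every alternative, and had -0.08 (SE 0.10, adjusted p = 0.51) in OSR1 and -0.20 (SE 0.10, adjusted p = 0.097) in OSR2. NRP1, the receptor of SEMA3A, measured 130.4 and 121 CPM in Control, 149 and 168 in OSR1, 187 and 155 in OSR2, 99.9 and 103 in KLF2, 94.5 and 84.8 in KLF4 and 126 and 129 in EGR1. The order was reversed, with OSR libraries above Control, EGR1 beside it and KLF libraries below. It rose by 0.33 in OSR1 and 0.44 in OSR2 (adjusted p from 0.0039 to 0.017, SE 0.10), fell with -0.31 in KLF2 and -0.49 in KLF4 (adjusted p from 0.0021 to 0.023, SE 0.10) and had 0.02 (SE 0.10, adjusted p = 0.9) in EGR1. For NRP1, the call in OSR1 was lost without Control replicate 2 or OSR1 replicate 2 (0.25 to 0.28, adjusted p from 0.1 to 0.11). NRP1's call in KLF2 was lost without Control replicate 1 or either KLF2 replicate (-0.26 to -0.33, adjusted p from 0.051 to 0.14). NRP2 was additionally called in OSR2 with library totals alone and in a fit of the compared groups alone.

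**Figure D3:**
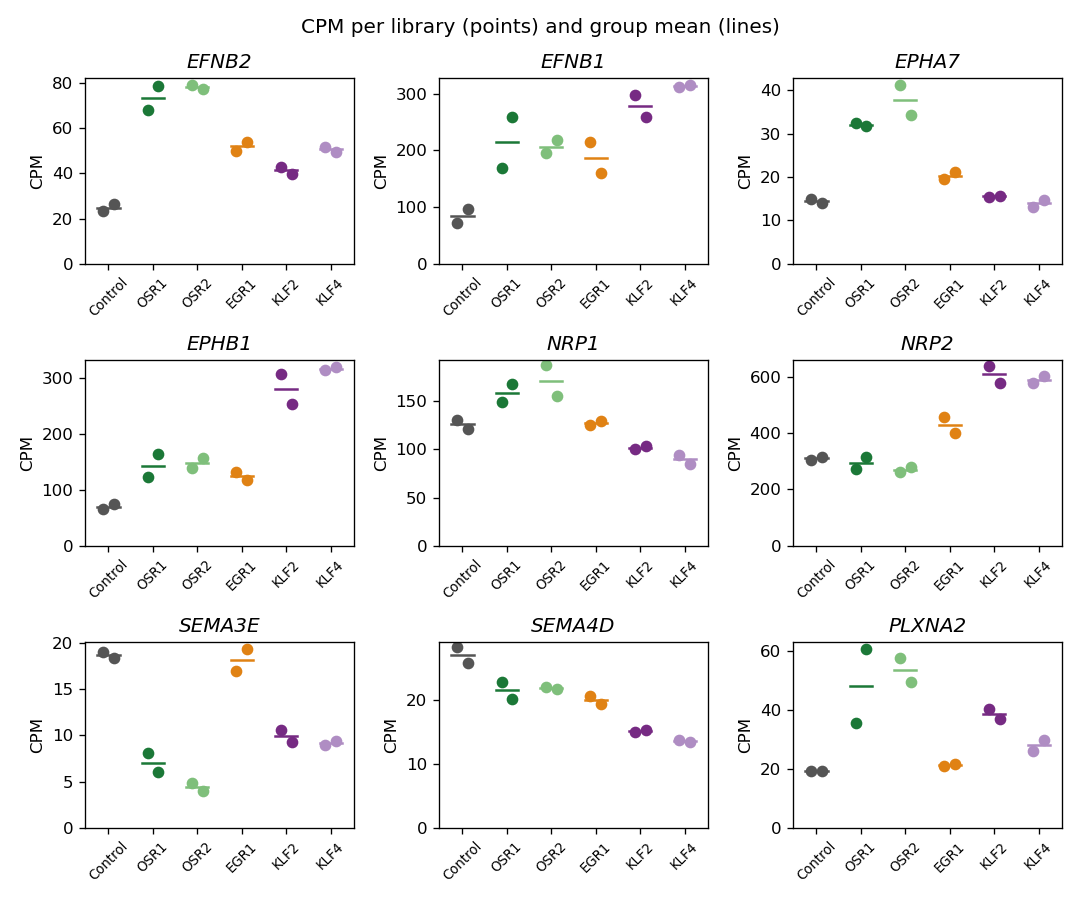
CPM in each library for 9 guidance genes, 1 panel each with its own linear vertical axis; points are the libraries and short lines the group means. NRP2 is highest in the KLF libraries (577 to 639 CPM) and NRP1 in the OSR libraries (149 to 187 CPM).

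Plexins, the signalling receptors of semaphorins, mostly rose. Of 7, 5 rose and 1 fell in OSR1, 5 rose and 1 fell in OSR2, 5 rose and 1 fell in KLF2, 4 rose and 1 fell in KLF4 and 4 rose and 0 fell in EGR1, and PLXNC1 gave the falls. The share called among plexins was 85.7% in OSR1, 85.7% in OSR2, 85.7% in KLF2, 71.4% in KLF4 and 57.1% in EGR1, beside 51.0%, 51.9%, 51.6%, 54.2% and 45.1% of all features in that order. PLXNA1, a partner of neuropilins, measured 166 and 165 CPM in Control, 244 and 285 in OSR1, 255 and 279 in OSR2, 303 and 231 in KLF2, 258 and 284 in KLF4 and 242 and 192 in EGR1. All factor libraries exceeded Control, and EGR1 replicates were widely spaced. It rose by 0.68 in OSR1, 0.69 in OSR2, 0.69 in KLF2, 0.71 in KLF4 and 0.39 in EGR1 (adjusted p from 0.0023 to 0.048, SE 0.14). For PLXNA1, the call in EGR1 was lost without either Control replicate, EGR1 replicate 1, either KLF4 replicate or either OSR2 replicate, with thinned counts, with library totals alone, with median-of-ratios size factors and with replicate number blocked (0.22 to 0.40, adjusted p from 0.056 to 0.32). PLXNA1's rise in KLF2 was 0.45 without KLF2 replicate 1, where it was still called. PLXNA2 measured 19.1 and 19.3 CPM in Control, 35.7 and 60.9 in OSR1, 57.5 and 49.5 in OSR2, 40.2 and 36.8 in KLF2, 26.1 and 29.8 in KLF4 and 21.0 and 21.5 in EGR1. OSR and KLF libraries lay above Control, and EGR1 libraries just above it. Calls were made in OSR1, OSR2 and KLF2, at 1.33 in OSR1, 1.48 in OSR2 and 1.00 in KLF2 (adjusted p from 0.00044 to 0.0035, SE 0.21), with 0.14 (SE 0.21, adjusted p = 0.6) in EGR1 and 0.54 (SE 0.21, adjusted p = 0.052) in KLF4. PLXNA4, a receptor of SEMA3A with NRP1, was counted at 3.58 and 3.24 CPM in Control, 4.70 and 6.01 in OSR1, 5.02 and 5.40 in OSR2, 10.1 and 7.62 in KLF2, 6.82 and 7.67 in KLF4 and 4.98 and 4.08 in EGR1. Both KLF groups were the highest. PLXNA4 rose by 0.65 in OSR1, 0.61 in OSR2, 1.38 in KLF2 and 1.09 in KLF4 (adjusted p from 0.00023 to 0.018, SE 0.18) and had 0.41 (SE 0.18, adjusted p = 0.091) in EGR1. For PLXNA4, the call in OSR1 was lost without Control replicate 2 or OSR1 replicate 2, with thinned counts and in a fit of the compared groups alone (0.47 to 0.63, adjusted p from 0.052 to 0.097). PLXNA4's call in OSR2 was lost without either Control replicate or OSR2 replicate 2 (0.54 to 0.69, adjusted p from 0.052 to 0.096). PLXND1, the SEMA3E receptor, measured 26.5 and 25.6 CPM in Control, 39.0 and 44.5 in OSR1, 43.7 and 42.4 in OSR2, 38 and 29.8 in KLF2, 28.3 and 29.3 in KLF4 and 35.5 and 31.4 in EGR1. Every factor library lay above Control, and the OSR libraries were the highest. Its rises were 0.68 in OSR1, 0.73 in OSR2, 0.36 in EGR1 and 0.38 in KLF2 (adjusted p from 0.00065 to 0.03, SE 0.12), with 0.15 (SE 0.12, adjusted p = 0.33) in KLF4. For PLXND1, the call in KLF2 was lost without either Control replicate or KLF2 replicate 1 and in a fit of the compared groups alone (0.16 to 0.41, adjusted p from 0.07 to 0.3). PLXND1's call in EGR1 was lost without either Control replicate or EGR1 replicate 1 and with library totals alone (0.27 to 0.39, adjusted p from 0.072 to 0.18). PLXNA2 was additionally called in KLF4 without either OSR1 replicate, in DESeq2 and in a fit of the compared groups alone.

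Among the remaining plexins, PLXNB2, the SEMA4C receptor, averaged 92.8 CPM in Control, 123 in OSR1, 129 in OSR2, 129.5 in KLF2, 146 in KLF4 and 115 in EGR1 and rose by 0.40 in OSR1, 0.47 in OSR2, 0.48 in KLF2, 0.65 in KLF4 and 0.31 in EGR1 (adjusted p from 0.00014 to 0.012, SE 0.08). For PLXNB2, the call in EGR1 was lost without either Control replicate or EGR1 replicate 2 and with library totals alone (0.22 to 0.32, adjusted p from 0.056 to 0.066). PLXNB1, the SEMA4D receptor, averaged 55.8 CPM in Control, 52.0 in OSR1, 51.9 in OSR2, 63.3 in KLF2, 73.1 in KLF4 and 75.5 in EGR1 and was called in EGR1 and KLF4, at 0.44 in EGR1 and 0.39 in KLF4 (adjusted p from 0.0067 to 0.009, SE 0.10). For PLXNB1, the call in KLF4 was lost without Control replicate 2 (0.35, adjusted p = 0.061). PLXNB1's call in EGR1 was lost without EGR1 replicate 1 (0.37, adjusted p = 0.057). PLXNC1, the SEMA7A receptor, averaged 44.4 CPM in Control, 35.4 in OSR1, 33.3 in OSR2, 38.2 in KLF2, 35.1 in KLF4 and 38.9 in EGR1 and fell in OSR1, OSR2, KLF2 and KLF4, at -0.33 in OSR1, -0.42 in OSR2, -0.22 in KLF2 and -0.34 in KLF4 (adjusted p from 0.002 to 0.047, SE 0.08). For PLXNC1, the call in OSR1 was lost without Control replicate 1 (-0.28, adjusted p = 0.071). PLXNC1's call in KLF2 was lost without either Control replicate, either EGR1 replicate, either KLF2 replicate, either KLF4 replicate or either OSR1 replicate, in a fit of the compared groups alone and with no low-count filter (-0.17 to -0.27, adjusted p from 0.053 to 0.25). PLXNC1's call in KLF4 was lost without Control replicate 1 (-0.29, adjusted p = 0.056). PLXNB1 was additionally called in KLF2 without KLF2 replicate 2. PLXNC1 was additionally called in EGR1 with library totals alone.

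Of the 7 Slit and Robo genes, 2 rose and 1 fell in OSR1, 2 rose and 1 fell in OSR2, 3 rose and 1 fell in KLF2, 2 rose and 1 fell in KLF4 and 4 rose and 1 fell in EGR1. SLIT3 and ROBO1 rose, and ROBO4 gave each fall. Among Slit and Robo genes the share called was 42.9% in OSR1, 42.9% in OSR2, 57.1% in KLF2, 42.9% in KLF4 and 71.4% in EGR1, beside 51.0%, 51.9%, 51.6%, 54.2% and 45.1% of all features in that order, lying below it in OSR1, OSR2 and KLF4. SLIT3, a secreted Robo ligand known in mesenchyme and vessels, measured 166 and 162 CPM in Control, 252 and 267 in OSR1, 252 and 263 in OSR2, 297 and 262 in KLF2, 215 and 236 in KLF4 and 294 and 264 in EGR1. All factor libraries lay above Control, and KLF4 was the lowest of them. SLIT3 rose by 0.66 in OSR1, 0.65 in OSR2, 0.77 in KLF2, 0.46 in KLF4 and 0.77 in EGR1 (adjusted p from 9.4e-05 to 0.0014, SE 0.09), each call holding under every alternative. ROBO1, a widely expressed Slit receptor, measured 111 and 106 CPM in Control, 159 and 179 in OSR1, 171 and 162 in OSR2, 169 and 132 in KLF2, 153 and 176 in KLF4 and 162 and 145 in EGR1. No factor library overlapped Control, whereas the factor groups overlapped one another. It rose by 0.64 in OSR1, 0.62 in OSR2, 0.47 in KLF2, 0.60 in KLF4 and 0.50 in EGR1 (adjusted p from 0.0016 to 0.0076, SE 0.12). For ROBO1, the call in KLF2 was lost without KLF2 replicate 1 (0.25, adjusted p = 0.12). ROBO1's call in EGR1 was lost without EGR1 replicate 1 (0.42, adjusted p = 0.061). SLIT1, the ligand mostly known from neurons, measured 5.31 and 6.57 CPM in Control, 3.70 and 4.82 in OSR1, 4.11 and 4.42 in OSR2, 6.42 and 4.82 in KLF2, 6.55 and 6.49 in KLF4 and 8.78 and 6.18 in EGR1. OSR libraries lay below Control, and the other groups overlapped it. It was called in no comparison with Control, and its log2 fold changes were -0.48 in OSR1, -0.48 in OSR2, -0.08 in KLF2, 0.13 in KLF4 and 0.33 in EGR1 (adjusted p from 0.078 to 0.77, SE 0.21). SLIT2 averaged 41.6 CPM in Control, 47.6 in OSR1, 47.3 in OSR2, 55.8 in KLF2, 47.1 in KLF4 and 52.2 in EGR1 and was called in EGR1 and KLF2, at 0.33 in EGR1 and 0.43 in KLF2 (adjusted p from 0.0013 to 0.0067, SE 0.08). For SLIT2, the call in EGR1 was lost without Control replicate 1 (0.32, adjusted p = 0.051). ROBO2 averaged 38.2 CPM in Control, 42.2 in OSR1, 36.1 in OSR2, 41.5 in KLF2, 42.1 in KLF4 and 52.8 in EGR1 and was called only in EGR1 (0.47, SE 0.17, adjusted p = 0.042). For ROBO2, the call in EGR1 was lost without either Control replicate, EGR1 replicate 1 or either OSR2 replicate, with library totals alone, with median-of-ratios size factors and with replicate number blocked (0.32 to 0.52, adjusted p from 0.052 to 0.25). ROBO3, a divergent receptor of commissural axons, averaged 1.64 CPM in Control, 2.23 in OSR1, 2.67 in OSR2, 0.996 in KLF2, 1.06 in KLF4 and 1.06 in EGR1 and was not called over Control, where its log2 fold changes were 0.45 in OSR1, 0.70 in OSR2, -0.72 in KLF2, -0.63 in KLF4 and -0.63 in EGR1 (adjusted p from 0.071 to 0.23, SE 0.30 to 0.31). ROBO4, an endothelial receptor, averaged 2.09 CPM in Control, 0.513 in OSR1, 0.336 in OSR2, 0.493 in KLF2, 0.358 in KLF4 and 0.894 in EGR1 and fell, with -2.02 in OSR1, -2.63 in OSR2, -2.07 in KLF2, -2.55 in KLF4 and -1.22 in EGR1 (adjusted p from 6.6e-05 to 0.0051, SE 0.27 to 0.30). ROBO4 is 1 of 12 listed endothelial markers, whose sum was 417 to 425 CPM in Control and 392 to 506 in the factor groups. ERG made up most of that sum, at a mean of 266 CPM in Control and 254 to 319 elsewhere. None of the 12 was at 0. PECAM1 averaged 107 CPM in Control and 42.8 to 59.3 elsewhere, while CDH5 averaged 1.05 in Control and 1.48 to 4.85 elsewhere. KDR averaged 13.4 CPM in Control and 107 in KLF4. Of the 12, 7 rose and 3 fell in OSR1, and 6 rose and 3 fell in OSR2. In KLF2 4 rose and 3 fell, in KLF4 6 rose and 2 fell, and in EGR1 1 rose and 2 fell. ROBO4 itself is counted among the falls in each group. Of all features, 24.6% to 28.9% were called higher over Control and 20.5% to 25.5% lower. The part of endothelial cells in the ROBO4 falls was not tested. SLIT1 was additionally called in OSR1 with thinned counts, and in OSR2 with library totals alone and in a fit of the compared groups alone. SLIT2 was additionally called in OSR1 without OSR1 replicate 1 or KLF2 replicate 2, and in OSR2 without KLF2 replicate 2, and in KLF4 in a fit of the compared groups alone. ROBO3 was additionally called in OSR2 without either OSR1 replicate, in a fit of the compared groups alone and with thinned counts, and in KLF2 with library totals alone and in a fit of the compared groups alone, and in KLF4 in a fit of the compared groups alone and with thinned counts, and in EGR1 with thinned counts.

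The OSR and KLF families of factors were compared directly rather than through Control, by the mean of each family's groups, 4 libraries against 4. Of the 53 guidance genes 15 were higher with OSR and 14 higher with KLF; 54.7% were called, beside 33.0% of all features (17.4% higher, 15.6% lower). The median log2 fold change was -0.10 over the guidance genes and -0.01 over all features. The families thus differed in which genes were high, with no common direction. Higher with OSR were the axon receptor EPHA7 (1.25, SE 0.08, adjusted p = 8.1e-07), the ligand EFNB2 (0.73, SE 0.07, adjusted p = 1.2e-05), NRP1 (0.79, SE 0.07, adjusted p = 9.6e-06), PLXNA2 (0.63, SE 0.14, adjusted p = 0.0084), SEMA4D (0.60, SE 0.07, adjusted p = 5.3e-05) and PLXND1 (0.44, SE 0.08, adjusted p = 0.0021). In each of EPHA7, EFNB2, NRP1 and SEMA4D the 4 OSR libraries lay above the 4 KLF libraries. At low CPM, EPHA6 (1.39, SE 0.17, adjusted p = 0.00011) and ROBO3 (1.25, SE 0.21, adjusted p = 0.0011) had the largest such differences, and SEMA6D (0.79, SE 0.07, adjusted p = 6.1e-06), SEMA3A (0.39, SE 0.08, adjusted p = 0.0022), SEMA3D (0.33, SE 0.05, adjusted p = 0.00026) and EPHB6 (0.45, SE 0.06, adjusted p = 0.00025) were also higher. EFNA5, EPHA4 and SEMA6A completed the 15, at 0.25, 0.23 and 0.29. Without OSR1 replicate 2 the PLXNA2 difference was 0.41. For EFNA5, the call of OSR over KLF was lost without KLF4 replicate 1 (0.22, adjusted p = 0.068). For EPHA4, the call of OSR over KLF was lost without KLF4 replicate 1 or OSR2 replicate 1 (0.19 to 0.21, adjusted p from 0.054 to 0.057). For SEMA6A, the call of OSR over KLF was lost without KLF2 replicate 2, KLF4 replicate 1, OSR1 replicate 1 or OSR2 replicate 2 (0.22 to 0.26, adjusted p from 0.087 to 0.11). Higher with KLF, and so negative in this comparison, were NRP2 (-1.09, SE 0.07, adjusted p = 8.2e-07), EPHB1 (-1.03, SE 0.10, adjusted p = 2.1e-05), SEMA3E (-0.78, SE 0.11, adjusted p = 0.00028), EPHA5 (-0.66, SE 0.09, adjusted p = 0.00017) and PLXNA4 (-0.60, SE 0.13, adjusted p = 0.0039). The KLF libraries of NRP2, EPHB1, SEMA3E, EPHA5 and PLXNA4 all lay above the OSR libraries. EPHA10 (-1.60, SE 0.24, adjusted p = 0.00045), SEMA3G (-0.87, SE 0.16, adjusted p = 0.0017), EFNA4 (-0.61, SE 0.14, adjusted p = 0.0078), EPHA3 (-0.45, SE 0.08, adjusted p = 0.00098), PLXNB1 (-0.39, SE 0.07, adjusted p = 0.002) and SEMA3C (-0.37, SE 0.05, adjusted p = 0.00029) were also lower with OSR. The log2 fold changes of EFNB1, SEMA3B and SLIT1 were -0.49, -0.79 and -0.51. For EFNB1, the call of OSR over KLF was lost without either KLF2 replicate, either KLF4 replicate, OSR1 replicate 1 or either OSR2 replicate, with thinned counts and with replicate number blocked (-0.35 to -0.54, adjusted p from 0.051 to 0.13). For SEMA3B, the call of OSR over KLF was lost without either KLF2 replicate, either KLF4 replicate or either OSR2 replicate (-0.72 to -0.87, adjusted p from 0.065 to 0.099). For SLIT1, the call of OSR over KLF was lost without KLF2 replicate 1, either KLF4 replicate, OSR1 replicate 1 or either OSR2 replicate (-0.41 to -0.53, adjusted p from 0.051 to 0.076). Cartilage markers moved with this comparison. The 12 listed summed to 3450 to 5620 CPM in OSR libraries and 11900 to 14100 in KLF libraries, beside 16500 to 17800 in Control, and 12 of 12 were called lower with OSR than with KLF. Listed skeletal muscle markers summed to 933 to 985 CPM with OSR and 528 to 698 with KLF, with 7 of 10 tested higher and 0 lower. No cartilage or muscle marker found in the files was at 0 in any group, and the part of either tissue in the differences between guidance genes was not tested.

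**Figure D4:**
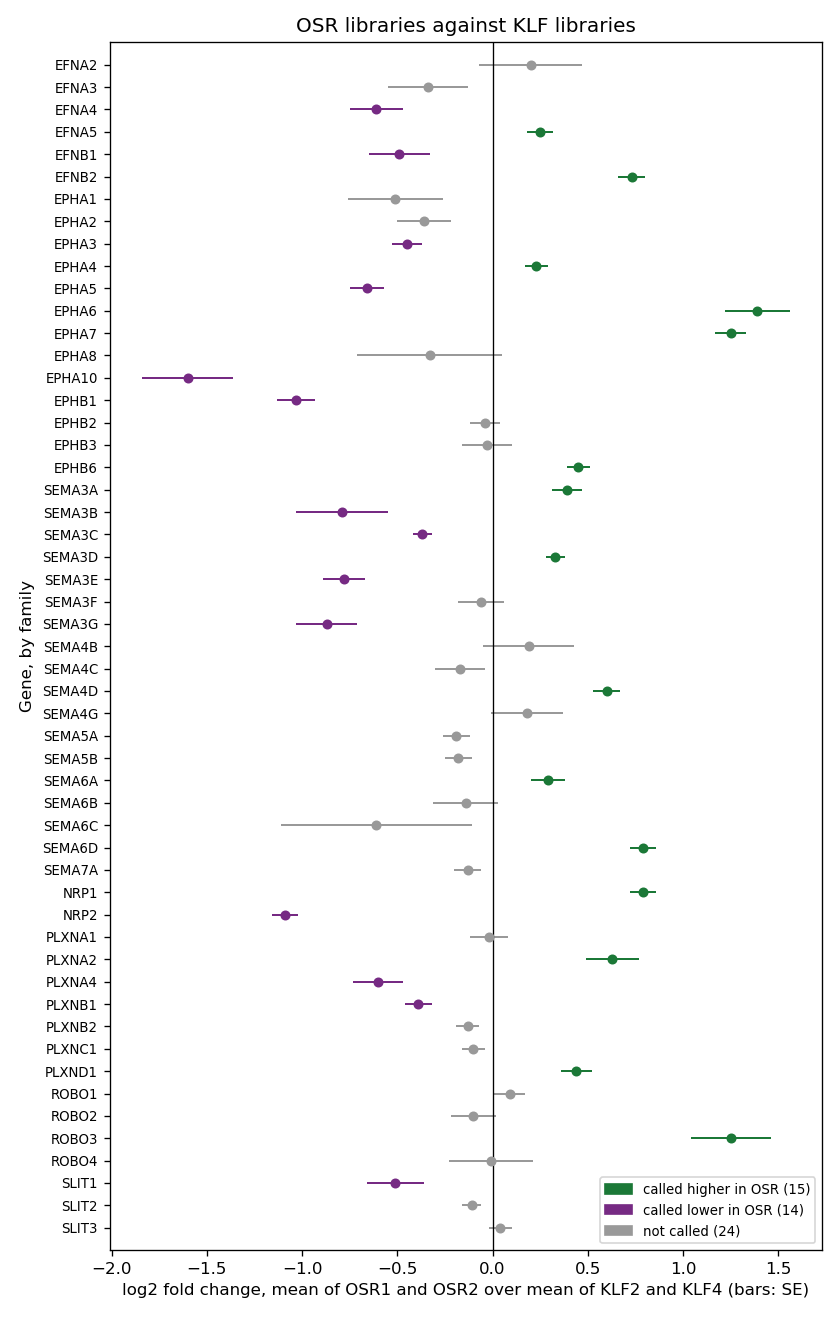
Log2 fold change of OSR over KLF (horizontal axis, bars are 1 standard error) for the 53 guidance genes, ordered by family. 15 genes were called higher in OSR (green), 14 lower (purple) and 24 were not called (grey), with EPHA6 at 1.39 and EPHA10 at -1.60 as the ends of the range.

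EGR1 was then set directly against each family. Against OSR 9 guidance genes were higher in EGR1 and 12 lower, 39.6% called beside 17.7% of all features (8.88% higher, 8.79% lower). Against KLF 9 were higher and 10 lower, 35.8% beside 14.4% of all features (8.07% higher, 6.31% lower). The count against OSR fell to 13 without EGR1 replicate 1, and that against KLF to 11 without EGR1 replicate 2. The share of all features called fell in both of those fits as well. SEMA3E and SEMA5B differed most clearly from both families. SEMA3E was higher in EGR1 than in OSR (1.70, SE 0.13, adjusted p = 6.8e-06) and than in KLF (0.92, SE 0.13, adjusted p = 0.00068), and so was SEMA5B (0.90, SE 0.08, adjusted p = 3.4e-05 against OSR, and 0.72, SE 0.08, adjusted p = 0.00025 against KLF). Both EGR1 libraries of SEMA3E and of SEMA5B lay above all OSR and KLF libraries. Summed cartilage markers were 16300 to 19700 CPM in EGR1, beside 16500 to 17800 in Control, and 12 of 12 were higher than with OSR and 5 of 12 higher than with KLF. Their part in the SEMA3E and SEMA5B differences was not tested. NRP2 lay between the families, above OSR (0.61, SE 0.08, adjusted p = 0.00038) and below KLF (-0.48, SE 0.08, adjusted p = 0.0028), and NRP1 lay between them in the other order (-0.37, SE 0.09, adjusted p = 0.013 against OSR, and 0.42, SE 0.08, adjusted p = 0.0066 against KLF). For NRP1, the call of EGR1 over OSR was lost without either EGR1 replicate (-0.35 to -0.39, adjusted p from 0.065 to 0.11). NRP1's call of EGR1 over KLF was lost without EGR1 replicate 2 (0.40, adjusted p = 0.062). Lower in EGR1 than in OSR were PLXNA2 (-1.26, SE 0.19, adjusted p = 0.0013), EPHA6 (-1.26, SE 0.21, adjusted p = 0.0019), EPHA7 (-0.78, SE 0.10, adjusted p = 0.00024), EPHA4 (-0.57, SE 0.07, adjusted p = 0.0003) and EFNB2 (-0.54, SE 0.08, adjusted p = 0.00093). EGR1 libraries of PLXNA2, EPHA6, EPHA7, EPHA4 and EFNB2 lay below all 4 OSR libraries. EPHB1 (-1.25, SE 0.13, adjusted p = 0.00012) and EPHA5 (-0.69, SE 0.11, adjusted p = 0.0014) were lower in EGR1 than in KLF, and SEMA4D (0.48, SE 0.08, adjusted p = 0.0022) and SEMA6D (0.48, SE 0.08, adjusted p = 0.0021) were higher. SEMA5A and SLIT1 were higher in EGR1 than in OSR (0.45, SE 0.08, adjusted p = 0.0033 for SEMA5A, and 0.81, SE 0.18, adjusted p = 0.0079 for SLIT1). For SEMA5A, the call of EGR1 over OSR was lost without EGR1 replicate 1 (0.35, adjusted p = 0.059). For SLIT1, the call of EGR1 over OSR was lost without EGR1 replicate 1 (0.54, adjusted p = 0.15).

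Within families few guidance genes were called. Between OSR1 and OSR2 0 of 53 were called by edgeR, beside 0.0105% of all features (0.00527% in each direction). In the same test 3 of 53 had an unadjusted p under 0.05, or 5.66% beside 3.84% of all features. DESeq2 called 1, SEMA3E, higher in OSR1 (log2 fold change 0.69, DESeq2 adjusted p = 0.049954). Its levels were 8.09 and 6.00 CPM in OSR1 and 4.82 and 4.02 in OSR2, without overlap. Log2 fold changes of the 53 ran from -0.26 to 1.11. Between KLF2 and KLF4 2 of 53 were called, both lower in KLF2, or 3.77% beside 2.66% of all features (0.674% higher, 1.99% lower). SEMA3C measured 113 and 103 CPM in KLF2 and 133 and 147 in KLF4 (-0.37, SE 0.07, adjusted p = 0.025). SEMA3G measured 1.19 and 0.997 CPM in KLF2 and 2.12 and 2.23 in KLF4 (-0.99, SE 0.22, adjusted p = 0.04). Neither gene's KLF2 and KLF4 libraries overlapped. For SEMA3C, the call of KLF2 over KLF4 was lost without either Control replicate, KLF2 replicate 2 or either KLF4 replicate and in a fit of the compared groups alone (-0.30 to -0.44, adjusted p from 0.052 to 0.24). For SEMA3G, the call of KLF2 over KLF4 was lost without either Control replicate, either KLF2 replicate, either KLF4 replicate or either OSR2 replicate, with thinned counts, in a fit of the compared groups alone and with replicate number blocked (-0.87 to -1.17, adjusted p from 0.055 to 0.24).

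Inside the cell these receptors act on the cytoskeleton through adaptors, GTPase regulators and kinases. A list of 59 symbols of effectors, not all of these kinds, was used, and 54 were in the files and tested. Of these 54, 19 rose and 16 fell in OSR1, and 21 rose and 15 fell in OSR2. In KLF2 22 rose and 14 fell, in KLF4 24 rose and 13 fell, and in EGR1 20 rose and 7 fell. The median log2 fold change was 0.04 in OSR1, 0.08 in OSR2, 0.00 in KLF2, 0.18 in KLF4 and 0.10 in EGR1, where that of all features was 0.05, 0.04, 0.02, -0.01 and 0.01 in the same order. Among the effectors the share called was 64.8% in OSR1, 66.7% in OSR2, 66.7% in KLF2, 68.5% in KLF4 and 50% in EGR1, beside 51.0%, 51.9%, 51.6%, 54.2% and 45.1% of all features in that order. Genes named from here were chosen after their values were seen. LIMK1, the kinase that inactivates cofilin, measured 6.21 and 7.38 CPM in Control, 16.6 and 26.2 in OSR1, 20.8 and 24.2 in OSR2, 24.1 and 20.9 in KLF2, 19.2 and 19.1 in KLF4 and 25.7 and 19.0 in EGR1. Each factor library lay above Control, and the factor groups overlapped. It rose by 1.65 in OSR1, 1.73 in OSR2, 1.73 in KLF2, 1.5 in KLF4 and 1.72 in EGR1 (adjusted p from 0.00022 to 0.00053, SE 0.22). DPYSL4 and DPYSL5 belong to the collapsin response mediators, which relay SEMA3A. Of the other listed members, DPYSL2 averaged 197 CPM in Control and 265 to 342 elsewhere, and DPYSL3 81.1 and 125 to 149. Both were called higher in every factor group in the full fit. In that fit CRMP1 rose in OSR1, OSR2 and EGR1, fell in KLF2 and was not called in KLF4. DPYSL4 measured 26.2 and 27.4 CPM in Control, 4.06 and 3.20 in OSR1, 1.93 and 1.68 in OSR2, 22.7 and 17.5 in KLF2, 20.5 and 15.9 in KLF4 and 21.5 and 18.6 in EGR1. OSR libraries were far below all others. DPYSL4 fell, with -2.88 in OSR1, -3.89 in OSR2 and -0.56 in KLF4 (adjusted p from 4.1e-07 to 0.017, SE 0.17 to 0.20). It was not called in KLF2 (-0.41, SE 0.17, adjusted p = 0.062) or EGR1 (-0.42, SE 0.17, adjusted p = 0.064). For DPYSL4, the call in KLF4 was lost without either Control replicate or KLF4 replicate 2 (-0.38 to -0.59, adjusted p from 0.056 to 0.16). DPYSL5 measured 0.525 and 0.660 CPM in Control, 2.44 and 4.93 in OSR1, 4.05 and 4.88 in OSR2, 2.10 and 1.18 in KLF2, 2.90 and 3.61 in KLF4 and 1.89 and 1.2 in EGR1, with every factor library above Control. DPYSL5 rose by 2.63 in OSR1, 2.90 in OSR2, 1.47 in KLF2, 2.45 in KLF4 and 1.38 in EGR1 (adjusted p from 0.00055 to 0.028, SE 0.43). For DPYSL5, the call in KLF2 was lost without either Control replicate or KLF2 replicate 1 (0.96 to 1.65, adjusted p from 0.058 to 0.15). DPYSL5's call in EGR1 was lost without either Control replicate or EGR1 replicate 1 (1.01 to 1.56, adjusted p from 0.078 to 0.17). VAV3, an exchange factor downstream of Eph receptors, measured 56.4 and 49.0 CPM in Control, 22.0 and 18.8 in OSR1, 18.1 and 16.1 in OSR2, 29.2 and 28.6 in KLF2, 28.8 and 25.6 in KLF4 and 54.8 and 60.5 in EGR1. EGR1 libraries overlapped none of the lower groups and were close to Control. VAV3 fell, with -1.37 in OSR1, -1.63 in OSR2, -0.86 in KLF2 and -0.95 in KLF4 (adjusted p from 2.8e-06 to 0.0002, SE 0.11 to 0.12) and had a log2 fold change of 0.13 in EGR1 (adjusted p = 0.37, SE 0.11). RND3, a small GTPase that binds plexins, measured 35.4 and 34.1 CPM in Control, 70.7 and 72.6 in OSR1, 84.9 and 85.9 in OSR2, 44.9 and 47.9 in KLF2, 42.5 and 40.6 in KLF4 and 40.8 and 41.9 in EGR1, the OSR libraries being highest. RND3 rose by 1.04 in OSR1, 1.30 in OSR2, 0.42 in KLF2, 0.26 in KLF4 and 0.25 in EGR1 (adjusted p from 5e-07 to 0.014, SE 0.07). For RND3, the call in KLF4 was lost without Control replicate 2 or KLF4 replicate 1 (0.23, adjusted p from 0.064 to 0.07). RND3's call in EGR1 was lost without either Control replicate or EGR1 replicate 2, in a fit of the compared groups alone and with library totals alone (0.16 to 0.28, adjusted p from 0.052 to 0.11).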

How the data were processed

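RNA from 6 groups of 2 libraries was made into strand-specific poly(A) libraries and sequenced, per the labels. The deposited values are raw whole-number counts per gene, with 1 table for each of the 12 libraries. TopHat2, SAMtools, featureCounts, DESeq2 and the build galGal4 are named in the submitters' processing notes. Their versions and roles, and the strand counted, are not stated there, so reads of paralogs or overlapping genes may be split in unknown ways. Of the 53 symbols, 49 are in a RefSeq gene table of another assembly (bGalGal1.mat.broiler.GRCg7b), used only for gene order, and no sequence was used.

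From these counts, edgeR 4.0.16 (limma 3.58.1, R 4.3.3) kept 18979 features by filterByExpr at a minimum count of 10 and gave TMM factors of 0.9521 to 1.041. One robust quasi-likelihood model, with 6 residual degrees of freedom, covered every library. It served 10 two-sided comparisons: factors against Control, and factors or families against one another, a family being the equal-weight mean of its groups. Calls needed an adjusted p (Benjamini-Hochberg, across these features) below 0.05, and p-values in the text come from that test unless another is named. Principal components used log2 CPM at a prior count of 2. Plots came from matplotlib 3.10.9 under Python 3.11.15.

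Whether the libraries of a group came from separate embryos or infections is not stated, so the p-values reflect nothing beyond library-to-library spread, which may be technical and in every group exceeded counting noise (chi-square per degree of freedom 13.84 to 91.44). The members, gene lists and comparisons were chosen with earlier results of these data known. Values are given library by library, per family, for the member with the highest mean CPM and up to 3 members with the widest range of group means at 5 CPM or more. Other genes named, effectors included, were chosen after their values were seen. The alternatives tried were another tool (DESeq2 1.42.0), other scalings (median-of-ratios or totals only), no filter, the replicate number as a blocking term, a model of the compared groups alone, and omission of each library. Thinning to the smallest total was added after seeing the data. Simulated data of 18979 genes had only a small share of genes changed in each comparison. Recovery over the 10 comparisons was 22.4% to 55.2% for 1.5-fold changes. It was 53.7% to 77.6% for 2-fold and 78.8% to 95.5% for 4-fold changes, with 2.5% to 11.7% of calls false. In the measured libraries, 45.1% to 54.2% of all features were called over Control. Whether these recovery and false-call rates hold at such shares was not tested.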

Additional observations from a re-analysis of the deposited data

How the results depend on the processing

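Of 150 called differences of the 27 genes given library by library, recomputed under 19 alternatives, none changed direction; of 2850 recomputed values, 2700 stayed called and 150 did not. The 53 guidance genes called, over the leave-one-out fits, numbered 27 to 40 in OSR1, 30 to 40 in OSR2, 22 to 34 in EGR1, 31 to 41 in KLF2 and 33 to 41 in KLF4 over Control. The lowest came without Control replicate 1, equalled in EGR1 without EGR1 replicate 1 and in KLF2 without KLF2 replicate 1. They numbered 23 to 32 for OSR over KLF, 13 to 22 for EGR1 over OSR, 11 to 22 for EGR1 over KLF, 0 for OSR1 over OSR2 in each fit and 0 to 3 for KLF2 over KLF4. DESeq2 called 1 gene, SEMA3E, between OSR1 and OSR2. Between KLF2 and KLF4 the count was 1 with the replicate block, 1 with thinned counts and 0 in a fit of the compared groups alone, and the cause was not tested. A fit without a library leaves its group with 1, which is assumed to vary like the others. In the fits with the lowest counts over Control, the share of all features called was also below that of the full fit. The same held for the lowest leave-one-out counts of OSR over KLF, EGR1 over OSR, EGR1 over KLF and KLF2 over KLF4. In the leave-one-out fits with the highest counts over Control, the share of all features called was above that of the full fit.

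Same-numbered replicates did not deviate together: over 15 pairs of groups the correlation of replicate differences across genes ran from -0.29 to 0.222, with 4 above 0.1, so the numbers were not taken to pair the samples. With the replicate number as a block, 36, 38, 30, 40 and 39 guidance genes were called over Control in OSR1, OSR2, EGR1, KLF2 and KLF4, 28 for OSR over KLF, 19 for EGR1 over OSR and 17 for EGR1 over KLF. In that setting 48.4%, 49.5%, 42.6%, 49.1% and 52.2% of all features were called over Control, in the same order. The shares of all features were 30.0% for OSR over KLF, 16.0% for EGR1 over OSR and 13.0% for EGR1 over KLF. Depth limits EPHA8, EPHA10 and SEMA6C, which had libraries with 2 to 5 counts. Among effectors, none of 171 called differences changed direction in 3249 recomputed values, of which 3047 stayed called and 202 did not.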

Other observations

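Several of the guidance genes are neighbours in the RefSeq gene order of another assembly. SEMA3A and SEMA3E are adjacent, with 0 genes between them. SEMA3A was called in no comparison with Control (1 alternative each called it in OSR2 and KLF4), while SEMA3E fell in OSR1, OSR2, KLF2 and KLF4, where its log2 fold changes were -1.41, -2.08, -0.91 and -1.03. ROBO3 and ROBO4 are also adjacent, and ROBO4 fell in each group, with log2 fold changes from -1.22 in EGR1 to -2.63 in OSR2, while ROBO3 was not called over Control except under some alternatives. SEMA3G, SEMA3F and SEMA3B follow one another with 7 and 3 genes between them. All 3 were called higher in KLF4, at 3.04, 1.38 and 1.34, where 28.7% of all features were called higher. Without Control replicate 1 the SEMA3B call was lost, at 1.06. In the full fit SEMA3G and SEMA3F were called higher in every factor group, but SEMA3B was not called in OSR1, OSR2, EGR1 or KLF2. No test was made of these pairs.

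Macrophage markers, 9 of 10 listed found in the files, summed to 40.7 to 43.3 CPM in Control and 42.4 to 50.7 in the factor libraries.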
